A study of Mus musculus with 7 samples.

Results

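The replication-dependent histone genes are the 68 protein-coding genes of the table whose symbols begin with Hist1h, Hist2h, Hist3h or Hist4h, out of 39179 genes in all. They comprise 6 genes for the linker histone H1, 19 for H2A, 18 for H2B, 12 for H3 and 13 for H4. The choice rested on symbol and biotype and used no measured value. The genes were compared in regulatory T cells, CD4+ cells sorted for TCRb, high CD25 and Foxp3, from lymph nodes of C57BL/6 mice of 3 weeks. The double-knockout group (dKO, Id2fl/flId3fl/flFoxp3cre, 3 libraries) lacks floxed Id2 and Id3, inhibitors of E protein transcription factors, in cells in which the Foxp3 promoter drives Cre. The control group (Id2fl/+Id3fl/+Foxp3cre, 2 libraries) carries the same Cre and is heterozygous for both floxed alleles, so neither group is wild type. A further library labelled control and a further library labelled dKO carry no replicate number and form a separate pair, whose genotype tags are the reverse of its titles. The labels do not say which libraries came from separate animals. The p-values thus measure the spread among these libraries alone, and that spread may be technical.

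Core histones H2A, H2B, H3 and H4 form the protein spool of the nucleosome, and H1 binds the linker DNA between nucleosomes. Their replication-dependent genes lie in clusters, mostly lack introns, and are transcribed and translated mainly in S phase, when new DNA has to be packaged. Their messenger RNAs typically end in a conserved stem-loop bound by the protein Slbp in place of a poly(A) tail. Per the labels' protocols, messenger RNA was purified on Dynabeads from total RNA, with a kit that captures poly(A) tails, and was then primed with random hexamers and oligo-dT. The libraries therefore hold what part of histone RNA that purification carried along, and whether that part differed between the groups was not tested. In bulk libraries, a larger share of dividing cells and more histone RNA per cell cannot be told apart.

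The stem-loop at the 3′ end is the sequence feature that sets this family apart, and its forms are shown for that reason. A search of annotated transcripts (GENCODE M21, GRCm38) on the sense strand found it in 46 of the 68 members and in 69 of 21901 protein-coding genes, or 0.315%. The search asked for a stem of 6 paired bases that opens with GG, ends with T on its first arm, and encloses a loop of 4 bases with T at the first and the third. Capitals mark the arms of the stem and lower case the 4 bases of the loop, in DNA letters.
Most frequent form, 26 members of H1, H2A, H2B and H3: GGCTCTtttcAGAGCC
Second form, 6 members of H1, H2B and H3: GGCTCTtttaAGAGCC
Most frequent H4 form, 7 members: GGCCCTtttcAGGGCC
Second H4 form, 2 members: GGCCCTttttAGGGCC
A further H4 form, 2 members: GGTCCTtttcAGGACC
The 12 H4 members with a match carried stems of their own: none had the GGCTCT arm found in the H1, H2A, H2B and H3 members. A missing match says only that these letters were not in the annotated transcript, and many of the 22 members without a match are annotated as little more than their coding sequence. Hist1h2ai, for example, has an annotated transcript of 393 bases.

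Promoters of 4 members are shown because they carry the motifs by which the types differ and because their genes gave different results. Each runs from 250 bases before to 50 bases after the start (RefSeq, GRCm38.p6), 5′ to 3′ on the gene's strand, and capitals mark ATTTGCAT, TATAAA and CCAAT on either strand.
Hist1h3c, chr13:23745472-23745771, minus strand: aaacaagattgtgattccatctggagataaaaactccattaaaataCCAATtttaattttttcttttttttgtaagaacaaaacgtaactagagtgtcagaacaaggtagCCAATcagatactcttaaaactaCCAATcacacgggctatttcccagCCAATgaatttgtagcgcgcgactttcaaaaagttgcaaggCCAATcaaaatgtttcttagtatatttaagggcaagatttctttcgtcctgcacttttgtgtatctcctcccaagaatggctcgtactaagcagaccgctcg
Hist1h2bg, chr13:23571150-23571449, plus strand: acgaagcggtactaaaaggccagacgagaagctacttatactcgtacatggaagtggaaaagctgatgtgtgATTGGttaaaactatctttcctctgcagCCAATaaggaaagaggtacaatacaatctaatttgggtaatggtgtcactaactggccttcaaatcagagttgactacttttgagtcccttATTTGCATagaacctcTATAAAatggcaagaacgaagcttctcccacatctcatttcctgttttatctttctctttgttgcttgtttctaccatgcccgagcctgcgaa
Hist1h4i, chr13:22041313-22041612, minus strand: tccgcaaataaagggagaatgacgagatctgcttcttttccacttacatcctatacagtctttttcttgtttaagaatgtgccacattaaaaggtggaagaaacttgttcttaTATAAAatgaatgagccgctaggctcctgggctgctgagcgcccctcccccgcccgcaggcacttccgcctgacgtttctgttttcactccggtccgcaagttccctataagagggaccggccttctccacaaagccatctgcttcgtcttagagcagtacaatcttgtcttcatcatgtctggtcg
Hist3h2ba, chr11:58948661-58948960, plus strand: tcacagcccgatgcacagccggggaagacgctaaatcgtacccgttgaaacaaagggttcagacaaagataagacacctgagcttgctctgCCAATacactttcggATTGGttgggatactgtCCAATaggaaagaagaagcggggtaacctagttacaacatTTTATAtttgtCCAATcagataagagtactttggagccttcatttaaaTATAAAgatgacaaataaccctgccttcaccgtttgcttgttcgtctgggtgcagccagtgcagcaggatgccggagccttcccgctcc
Hist1h3c and Hist1h2bg rose in dKO, Hist1h4i was the H4 gene that rose, and Hist3h2ba was the member that fell. The Hist1h2bg window also covers the start of Hist1h2ae, which is transcribed in the opposite direction. Of 63 member promoters in the RefSeq table (62 members), ATTTGCAT was in 14, namely 7 of H2A and 7 of H2B, against 1.74% of all 32851 promoters. CCAAT was in 54, including those of every H1, H2A, H2B and H3 member matched, but in 3 of 12 for H4, against 37.4% of all promoters. TATAAA was in 35, against 13.6% of all. CANNTG, the general letters of an E box to which E proteins bind, was in 43, against 72.3% of all promoters, and its form CAGCTG was in 7, against 16.3%. These matches describe the letters in the windows and are not binding sites.

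Of the 67 members with a p in the authors' deposited table, 29 rose in dKO at an adjusted p under 0.05, 1 fell and 37 did not pass. Over all 31641 genes with a p, 6.56% were called in the same comparison, with 3.38% higher and 3.18% lower. Where the mean reached 10 scaled counts (reads divided by a size factor for each library, then averaged over a group), the shares of all genes were 6.80% and 6.48%, while 59 members reached that level and held every one of the 30 calls. The median log2 ratio of dKO over control was 0.76 over the 64 members above 0 in both groups, and -0.02 over all 26690 such genes. The types differed in their counts. H3 had 10 of 11 tested members higher, H1 had 4 of 6, H2A 7 of 19, H2B 7 of 18 with 1 lower, and H4 1 of 13. The medians were 0.93 for H3, 0.88 for H2B, 0.77 for H1, 0.67 for H2A and 0.49 for H4. No test of the difference between types was made.

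**Figure D1:**
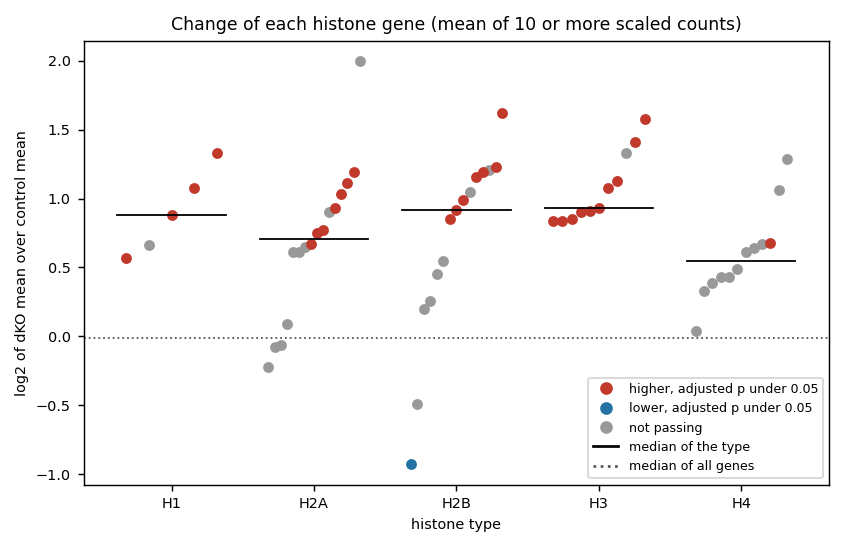
Log2 of the dKO mean over the control mean (vertical axis) for each histone gene with a mean of 10 or more scaled counts, by type (horizontal axis). Each point is a gene, red or blue where the authors' adjusted p is under 0.05, black bars are type medians and the dotted line is the median of all genes at that level (-0.01). Nearly all H3 points are red, while 1 of the H4 points is.

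Because many copies are almost identical, reads can be split between them, and sums by type are the surer measure. Summed H3 was 1649 and 1294 scaled counts in the deeper and the shallower control library and 2962 as the mean of the 3 dKO libraries, 2.01-fold the control mean. Summed H1 was 1537 and 1413 in the control libraries and 2697 in dKO, 1.83-fold. Summed H2B was 1280.4 and 1078 against 1864, 1.58-fold, and summed H4 was 936 and 723 against 1206, 1.45-fold. In each of these 4 types the dKO mean lay above both control libraries. The H2A sum is dominated by Hist1h2ao and was 6442 in control and 7537 in dKO, 1.17-fold, and without that gene it was 2163 and 1872 in the control libraries and 2830.0 in dKO, a log2 of 0.49. All members together made up 0.0293% of the summed scaled counts in control and 0.0407% in dKO. No spread between dKO libraries could be had for these sums, since the table gives the dKO group as a mean, so no test was made on them.

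**Figure D2:**
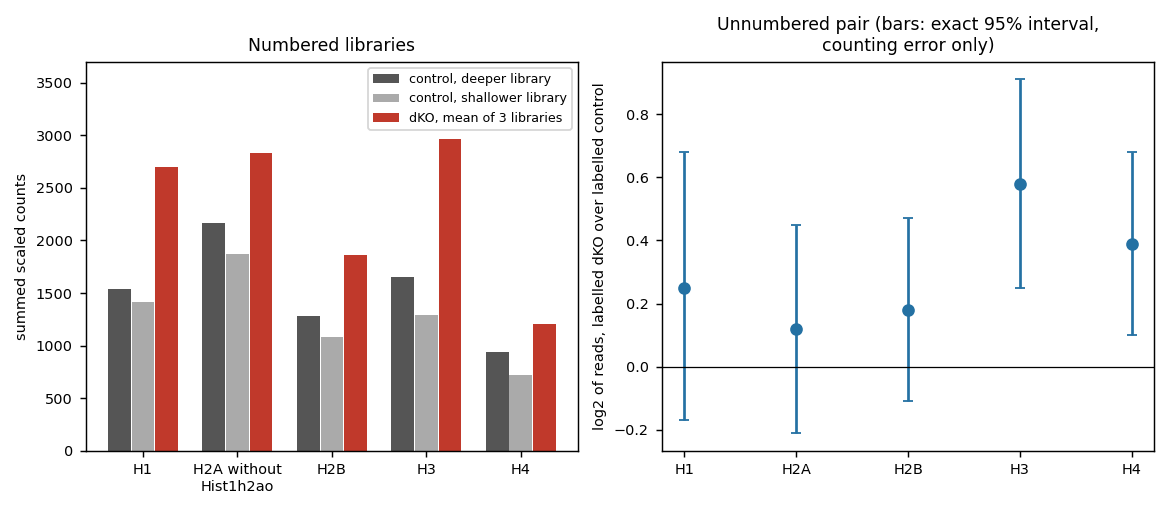
Left, summed scaled counts of each histone type (vertical axis from 0) in the deeper control library, the shallower control library and as the mean of 3 dKO libraries. H2A is shown without Hist1h2ao, whose control libraries could not be resolved. Right, log2 of reads in the library labelled dKO over the library labelled control of the unnumbered pair, with exact 95% intervals for counting error. Only members with recovered reads are included there. On the left the dKO bar is above both control bars in each set shown, and on the right the intervals of H3 and H4 lie above 0.

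In H1, the levels differed widely between genes. Per kilobase of exon, the control mean was 841 scaled counts for Hist1h1e, 262 for Hist1h1c, 159 for Hist1h1b and 65.8 for Hist1h1d. Hist1h1e (H1.4; chr13:23621755-23622502) had 637 scaled counts in the deeper and 621 in the shallower control library and 1155 in dKO. The authors' deposited table gave a log2 of 0.88 with an adjusted p of 3.31e-07. Hist1h1b (H1.5) had 122 and 114 in the control libraries and 296 in dKO, and Hist1h1d (H1.3) had 267 and 236 against 533. The control libraries lay close together for these genes and well under the dKO mean. In the authors' deposited table, the adjusted p was 6.93e-09 for Hist1h1b and 1.73e-05 for Hist1h1d. Hist1h1c (H1.2) rose less, from 452 and 365 to 606, at 0.0106 adjusted p in the authors' deposited table. Hist1h1a (H1.1) had 59.1 and 74.2 against 105 and did not pass, at 0.235 in the authors' deposited table. Hist1h1t, the testis H1, was near 0, with 1 and 4 reads in the control libraries and 3, 1 and 1 in the dKO libraries. Of the 50-base stretches of the H1 genes, a median of 1.12% was also found in another gene, but 32.0% for Hist1h1e, most closely in Hist1h2be. The GENCODE M21 transcript searched for Hist1h1e has 1930 bases, against 748 of counted exon. Its shared stretches may thus lie outside the sequence counted.

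**Figure D3:**
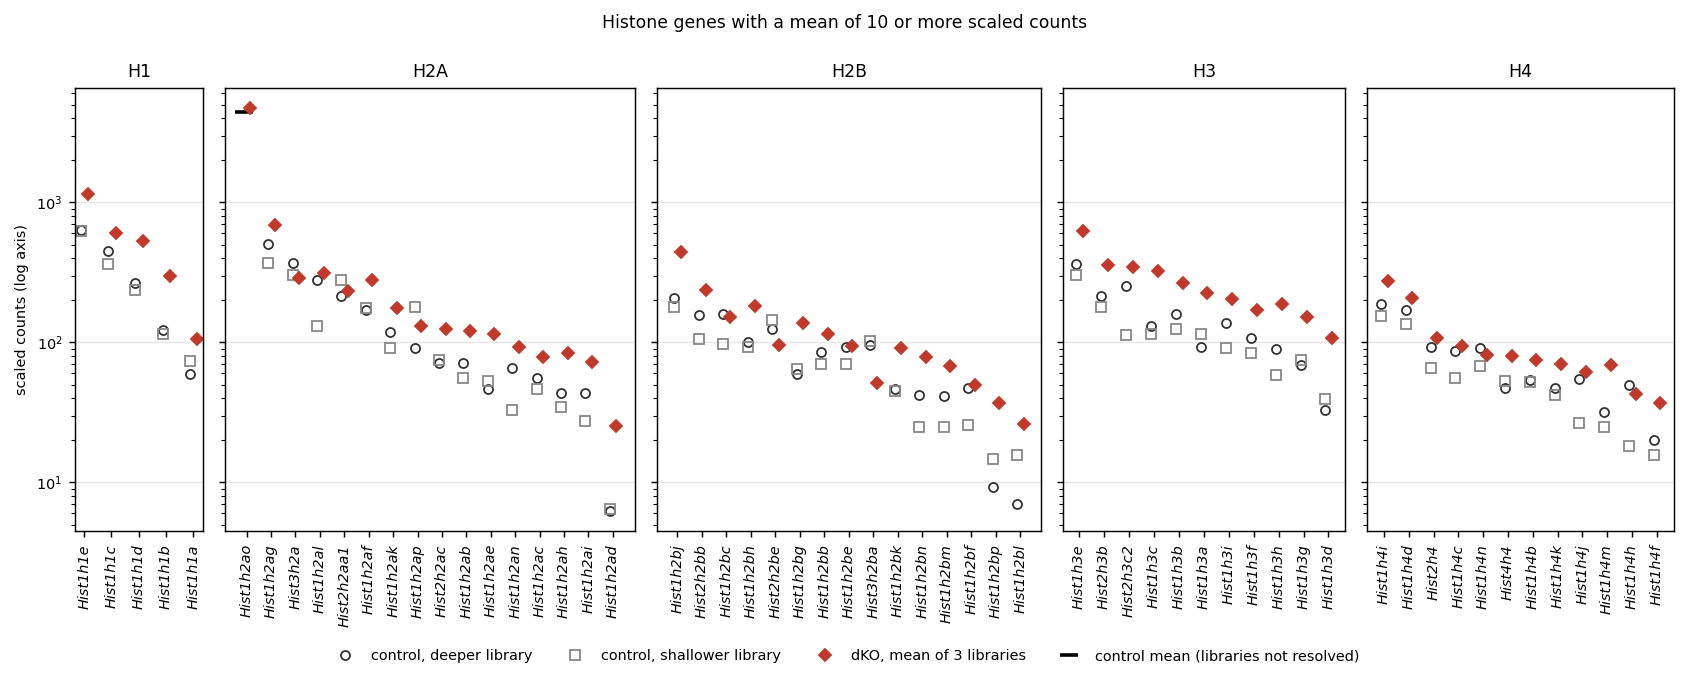
Scaled counts (vertical log axis) of every histone gene with a mean of 10 or more, in panels by type and ordered by level. Open circles and squares are the control libraries, red diamonds the mean of 3 dKO libraries, and the black bar is the control mean of Hist1h2ao, whose libraries could not be resolved. Red diamonds lie above both control symbols for 50 of 58 resolved genes and below both for 3.

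The 11 H3 genes above 0 ranged in log2 from 0.84 to 1.58, and each dKO mean was above both control libraries. Hist1h3c (chr13:23744973-23745602) had 131 and 114 scaled counts in the control libraries and 326 in dKO. Its log2 was 1.41 (adjusted p = 2.31e-10 in the authors' deposited table), the smallest adjusted p of any member. Hist1h3e, the H3 gene with the most scaled counts, had 364 and 301 against 621 (adjusted p = 3.35e-06 in the authors' deposited table). Hist1h3a had 92.5 and 115 against 227, and Hist1h3d, the H3 gene with the largest log2, had 32.7 and 39.4 against 107. Hist1h3b, Hist1h3f, Hist1h3g and Hist1h3i also rose, with log2 values of 0.91, 0.84, 1.08 and 0.84 in the authors' deposited table. Hist2h3b had 216 and 179 against 357, but its locus overlaps another gene.

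The control libraries lay far apart for Hist2h3c2. It had 251 scaled counts in the deeper and 112 in the shallower control library, against 346 in dKO. The log2 was 0.93 in the authors' deposited table, with an adjusted p of 0.0305, but 0.46 against the deeper library alone and 1.63 against the shallower alone. Hist1h3h did not pass, with 90.2 and 58.6 against 187 (adjusted p = 0.0770 in the authors' deposited table). Hist2h3c1 had no read in any library, and every one of its 50-base stretches is also found in another annotated gene.

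H2B held both the widest range and the member that fell. Hist1h2bj (chr13:22043214-22043676) had 208 and 180.3 scaled counts in the control libraries and 443 in dKO. Its log2 was 1.19 (adjusted p = 6.52e-09 in the authors' deposited table). Hist2h2bb had 156 and 105 against 236, Hist1h2bh had 100.3 and 92.5 against 182, and Hist1h2bg had 59.1 and 64.1 against 137. All rose, and the dKO mean was above both control libraries each time. Hist1h2bk, Hist1h2bn and Hist1h2bp rose from lower levels. Hist1h2bk had 46.6 and 44.9 in the control libraries against 90.7, Hist1h2bn 42.0 and 24.7 against 78.3, and Hist1h2bp 9.33 and 14.6 against 36.8. Hist2h2bb overlaps another gene. Hist1h2bc, among the 4 H2B genes with the most scaled counts, had 159 and 97.0 against 153, so its dKO mean lay between the control libraries.

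Hist3h2ba (chr11:58948911-58949532) fell. It had 95.6 and 102 scaled counts in the control libraries and 51.7 in dKO. Its log2 was -0.93 (adjusted p = 0.0193 in the authors' deposited table). Its neighbour Hist3h2a had 371 and 303 against 289 and did not pass (adjusted p = 0.854 in the authors' deposited table). These are the members of the Hist3 cluster on chromosome 11, and their sum was 466 and 405 in the control libraries and 341 in dKO. Most of that sum came from Hist3h2a. Its locus overlaps another gene, and 31.5% of its 50-base stretches are shared, most closely with Trim17. Hist2h2be was the other H2B gene whose dKO mean lay below both control libraries, with 124 and 145 against 95.5, and it did not pass (adjusted p = 0.341 in the authors' deposited table).

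In H2A, Hist1h2ao took up 38.8% of all histone scaled counts in control and 28.9% in dKO. Its control mean was 4425 and its dKO mean 4707, a log2 of 0.09 that did not pass (unadjusted p = 0.891 in the authors' deposited table). Of its 50-base stretches, 93.5% also occur elsewhere, most closely in Hist1h2ap, which had only 91.7 and 180.3 in the control libraries and 130.2 in dKO. The level of Hist1h2ao is therefore uncertain as the level of 1 gene. In the unnumbered pair, both Hist1h2ao and Hist1h2ap are listed at 0. Hist1h2ag, next in scaled counts, had 503 and 369.8 against 685 and did not pass (adjusted p = 0.108 in the authors' deposited table). Hist1h2al had 279.9 and 131 against 314, and its control libraries differed by more than its dKO mean did from the deeper of them.

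The H2A genes that rose were Hist1h2ab, Hist1h2ae, Hist1h2af, Hist1h2ah, Hist1h2ai, Hist1h2ak and Hist2h2ac. Hist1h2ae had 46.6 and 53.1 against 114, and Hist1h2af had 171 and 177 against 278. Their adjusted p values in the authors' deposited table were 0.000600 and 0.00970. Hist1h2ak had 118 and 90.6 against 176, and Hist1h2ab had 70.7 and 55.8 against 121. The others had log2 values of 1.11 (Hist1h2ah), 1.03 (Hist1h2ai) and 0.77 (Hist2h2ac) in the authors' deposited table. Hist2h2aa1 had 216 and 278 against 233, between the control libraries.

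H4 values were higher than the control mean in dKO in all 13 genes, but in 3 the dKO mean lay between the control libraries. Hist1h4i alone passed, and 1 of 13 is near the 6.80% higher over all genes with a mean of 10 or more. Hist1h4i (chr13:22040816-22041352) had 188 and 155 scaled counts in the control libraries and 274 in dKO. Its log2 was 0.68 (adjusted p = 0.0126 in the authors' deposited table). Hist1h4d had 170.3 and 135 against 206, Hist2h4 had 93.3 and 65.9 against 107, and Hist1h4c had 87.1 and 55.8 against 93.6. These dKO means sat only a little above the deeper control library. The adjusted p in the authors' deposited table was 0.332, 0.864 and 0.820 in that order. Hist1h4m had the largest log2 of the type, 1.29, with 31.9 and 24.7 against 69.1, and did not pass (adjusted p = 0.963 in the authors' deposited table). Of its 50-base stretches, 89.8% are also found in Hist1h4n, which had the smallest log2 of the type, 0.04. Hist1h4n had 91.0 and 67.7 against 81.5, so the split between these copies is uncertain. The deeper control library exceeded the shallower in 11 of the 13 H4 genes, and in 44 of the 67 members resolved, whereas the median log2 of shallower over deeper was 0.03 over all resolved genes at 10 scaled counts or more.

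The dKO mean lay above both control libraries in 54 of the 67 members resolved and below both in 3. At a mean of 10 or more scaled counts these were 50 and 3 of 58. Among all 7947 resolved genes at that level with a control mean under 1000, the dKO mean was above both in 35.9% and below both in 40.9%.

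Of the 9 members with a dKO mean under 10 scaled counts, none passed. Hist1h2ba and Hist1h2aa, the testis H2B and H2A genes, had 2, 0 and 0 and 2, 5 and 6 reads in the dKO libraries, and 0 and 0 and 2 and 5 in the control libraries. Hist1h2br had 7, 3 and 0 reads in dKO and none in control, and Hist2h2aa2 had 4, 0 and 7 against none. Every 50-base stretch of Hist2h2aa1 is shared, most closely with Hist2h2aa2, so the split between these copies is uncertain.

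Position on the chromosome was compared next. Of the 55 Hist1 genes, all on chromosome 13, 25 rose. Hist1h2al (chr13:51202688-51203065) lies far from the others, and without it and Hist1h2ao the sum of the remaining 53 genes was 5637 and 4826 in the control libraries and 9317 in dKO. The Hist2 cluster of 10 genes on chromosome 3 held the other 4, with sums of 1134 and 966 against 1508. Hist4h4 on chromosome 6 had 47.4 and 53.1 against 80.2 and did not pass (adjusted p = 0.216 in the authors' deposited table). In 12 head-to-head pairs, an H2A and an H2B gene start 168 to 306 bases apart on opposite strands. Both genes rose in 3 pairs (Hist1h2ak with Hist1h2bn, Hist1h2ah with Hist1h2bk, Hist1h2ae with Hist1h2bg), 1 gene rose in 4 pairs and neither in 5. Hist2h2ac and Hist2h2be, 241 bases apart, had log2 values of 0.77 and -0.49, the former passing and the latter not.

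Promoters were also split by their letters, for members with a mean of 10 or more. Of 45 with CCAAT, 26 belonged to genes that rose, and of 9 without it, all of H4, 1 did. Their median log2 was 0.90 and 0.64. With ATTTGCAT, 7 of 12 rose, and without it 20 of 42. The site shared by Hist1h2ae and Hist1h2bg, and that shared by Hist1h2ah and Hist1h2bk, count for both genes. With CANNTG, 14 of 36 rose, and without it 13 of 18, with medians of 0.85 and 0.87. No test was made of these splits, and type and motif overlap in the case of CCAAT.

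Annotated ends were then compared, since a transcript that runs past the stem-loop can carry a poly(A) tail. Of the 23 members with fewer than 100 annotated bases after the stem-loop, 9 rose, with a median log2 of 0.92 at a mean of 10 or more. Of the 23 with 100 or more, 11 rose and 1 fell, with a median of 0.68. Of the 22 without a match, 9 rose, with a median of 0.85. Summed scaled counts were 3285 in control and 5318 in dKO for the members with longer ends, a log2 of 0.70. Those with short ends summed to 6439 and 8108, a log2 of 0.33. Most of the latter sum was Hist1h2ao alone (4425 and 4707, a log2 of 0.09), so these sums do not compare the kinds of end. Hist1h3c, with 74 bases after the stem-loop, and Hist1h3d, with 752, had log2 values of 1.41 and 1.58. Copies were compared over the 59 members with a mean of 10 or more. Of the 28 that share 50% or more of their 50-base stretches, 14 rose, and of the 31 that share less, 15 rose and 1 fell. Their median log2 values were 0.90 and 0.68. Both splits use GENCODE M21 transcripts, which can differ in length from the exons counted. Hist1h2bh has 1679 bases there against 436 of counted exon, and Hist1h4d 1138 against 393. Such members are sorted partly by sequence that was not counted.

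**Figure D4:**
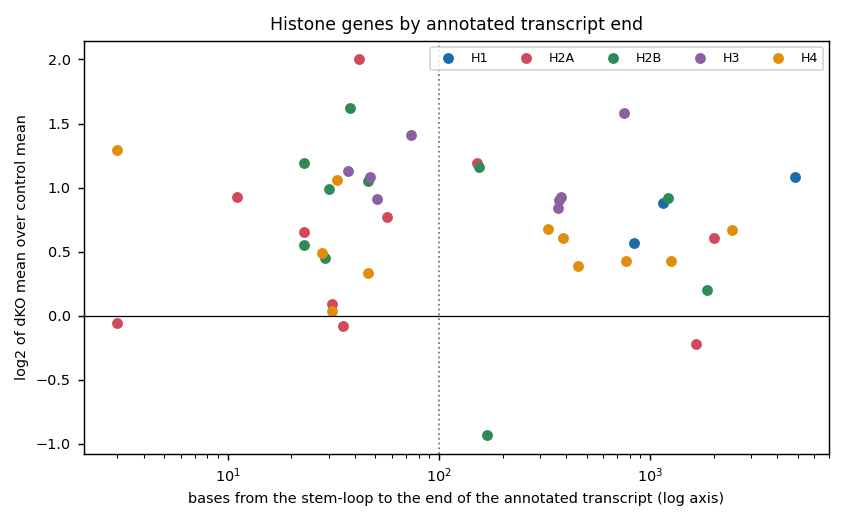
Log2 of dKO over control (vertical axis) against the number of bases from the stem-loop to the annotated transcript end (horizontal log axis), for members with a stem-loop and a mean of 10 or more scaled counts, coloured by type. The dotted line marks 100 bases. Values above 0 lie on both sides of the line.

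Genes that supply or handle histones in other ways were counted from fixed lists in the authors' deposited table. Beside the counts of each list stand the shares over all genes with a mean of 10 or more scaled counts. These were 6.80% higher and 6.48% lower. Among 11 variant histones, whose transcripts mostly carry poly(A) tails and are made outside S phase as well, 4 rose and none fell. Cenpa, the centromeric H3, went from 3201 to 5735 scaled counts, H2afx, the H2A variant phosphorylated at DNA breaks, from 3583 to 5244, and H1f0 from 2808 to 3695. In the authors' deposited table, their adjusted p values were 4.50e-08, 0.00140 and 0.0495. H1fx rose from a low level, with 26.4 and 43.9 in the control libraries and 84.4 in dKO. The abundant replacement variants H3f3a, H3f3b and H2afz did not pass, with log2 values of 0.13, 0.11 and 0.17 in the authors' deposited table.

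Among 21 genes of histone mRNA transcription, processing and decay, 1 rose and 1 fell, near the shares over all genes. Slbp, the stem-loop binding protein, went from 4576 to 6515 (adjusted p = 0.0374 in the authors' deposited table). Zcchc11, a uridylyltransferase that acts in RNA decay, went from 4114 to 2823, with 0.000900 in the authors' deposited table, and its locus overlaps another gene. Npat, the coactivator of histone gene transcription, had 1409 in control and 1521 in dKO and did not pass, and neither did Casp8ap2, Lsm10 and Lsm11, with log2 values of 0.20, -0.22 and -0.03 in the authors' deposited table.

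Of 19 histone chaperone and importer genes, 5 rose and 1 fell. Chaf1a and Chaf1b, subunits of the assembly factor that deposits H3 and H4 on replicated DNA, went from 1464 to 2504 and from 1229.9 to 1699. Asf1b, which hands H3 and H4 to that factor, went from 3057 to 5704, and Nasp, a chaperone of H1, H3 and H4, from 4173 to 5855. Nap1l1, a chaperone of H2A and H2B, rose from 14674 to 19239. Daxx, which deposits the replacement variant H3.3, fell from 5914 to 4229.6, while its partner Atrx had a log2 of 0.04 in the authors' deposited table and did not pass.

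Of 16 S phase genes, 10 rose and none fell, beside 6.80% higher and 6.48% lower over all genes with a mean of 10 or more. Ccna2 and Rrm2, a cyclin and a subunit of ribonucleotide reductase, went from 4051 to 8015 and from 4748 to 9388. Ccne2, a cyclin of the entry into S phase, had 646 and 564 in the control libraries and 1127 in dKO. Tyms, Cdc45 and Ccne1 had log2 values of 0.82, 0.83 and 0.77 in the authors' deposited table. Pcna, the replication clamp, had 11116 in control and 18609.5 in dKO and did not pass (adjusted p = 0.409 in the authors' deposited table). The S phase median log2 was 0.51, the chaperone median 0.18, the variant median 0.19 and the processing median 0.12, beside 0.76 for the replication-dependent genes. Among the genes of these lists named as higher, the loci of H1fx, Chaf1a, Nap1l1, Ccna2, Cdc45 and Ccne2 overlap another gene. All of these comparisons rest on the same 5 libraries.

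**Figure D5:**
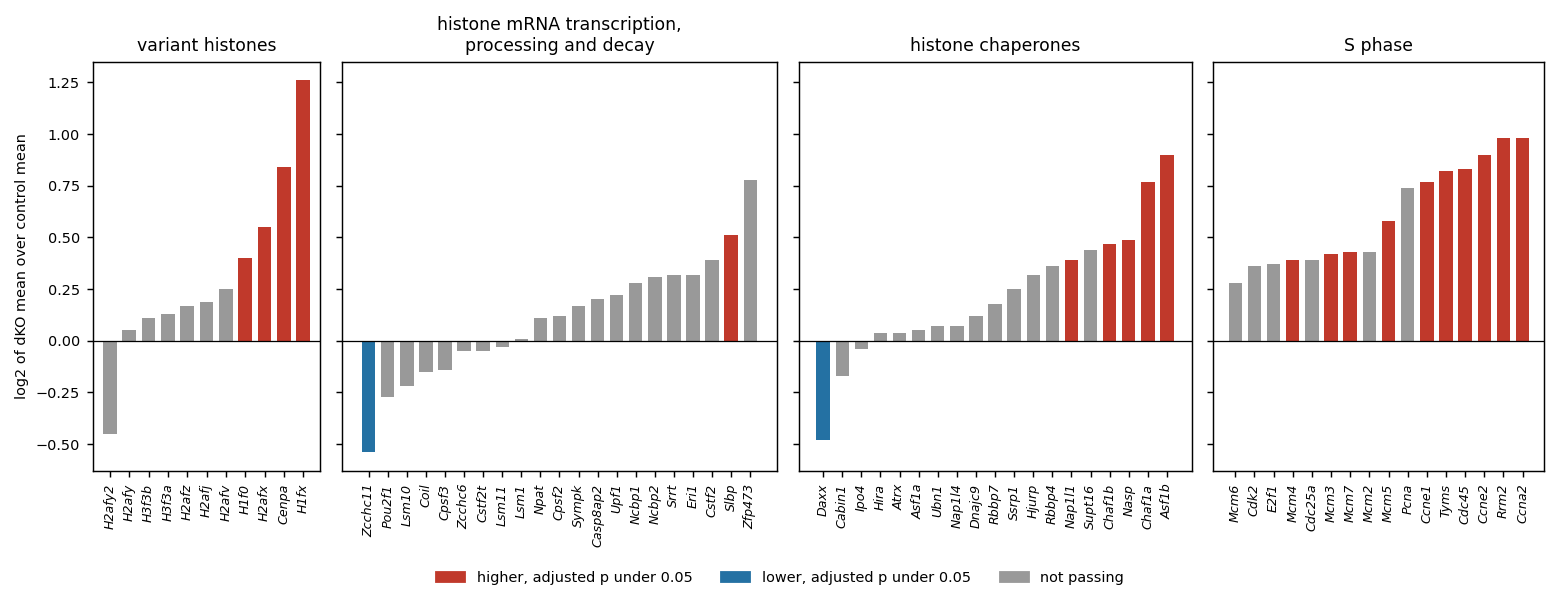
Log2 of dKO over control (bars from 0) for each gene of 4 lists, ordered within a list. Red and blue bars have an adjusted p under 0.05 in the authors' deposited table and grey bars do not. The S phase list has 10 red bars of 16, and the processing list has 1 red and 1 blue bar of 21.

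Checks of the labels and of other cell types concern all genes. Id2 went from 783 to 61.1 scaled counts (adjusted p 1.48e-08 in the authors' deposited table), and Id3 from 1376 to 891, which did not pass at 0.209. Which part of each gene was deleted is not given in the labels. Foxp3 was at 13481 and 10942 and Il2ra at 32376 and 32126 in control and dKO, neither passing. Of 7 regulatory T cell markers, 1 rose, Ctla4, from 13258 to 26706, and its locus overlaps another gene. Of the plasma cell markers, Mzb1 rose from 11.2 to 905. Igj was at 70.3 and 133 and Sdc1 at 23.4 and 28.0, neither passing. The summed 4 markers were 3855 and 7454, most of it from Xbp1 (3749.7 and 6388), which did not pass. The 4 B cell markers given here summed to 969 and 1065 with none passing, most of it from Cd79b (894 and 1006), and Ms4a1 and Pax5 were near 0, at most 6.28. Myeloid markers (5 of 6 in the table) summed to 126 and 144 and NK cell markers to 70.5 and 65.5, with none passing. Dendritic cell markers summed to 73.7 and 52.7, with Xcr1 lower (47.0 and 13.3). CD8 T cell markers summed to 679.8 and 714, stromal markers to 4771 and 4524, and erythroid markers to 4.41 and 2.91, with none passing. Most of the stromal sum came from Pecam1 (4674 and 4397). The part of other cells in the histone values was not tested.

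The unnumbered pair was read on its own, as FPKM (fragments scaled to transcript length and to the number of mapped fragments). It has 66 of the 68 members, of which 54 were above 0 in a library and 12 were listed at 0 in both. With 1 library on each side there is no replicate check. No member had a q under 0.05 in the authors' deposited table, where the smallest was 0.688. Summed FPKM of all members was 284 in the library labelled control and 325 in that labelled dKO. H3 went from 33.6 to 51.0, H4 from 83.9 to 103, H2B from 64.1 to 68.2, H2A from 59.5 to 61.2 and H1 from 42.9 to 41.6. The log2 (pseudocount 1 FPKM) was 0.59 for H3 and -0.04 for H1. These directions follow the titles and source names, and with the genotype tags the sign of each would turn, so no order of the types is read from the pair.

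The FPKM of short genes were whole multiples of the worth of 1 read, so reads could be recovered. For the 312-base H4 genes 1 read was worth 0.714 FPKM in the library labelled control and 0.692 in that labelled dKO. Over 56 members, 726 and 928 reads were recovered, a log2 of 0.31 after scaling (exact 95% interval 0.17 to 0.45, counting error only). Members left out include Hist1h1c, Hist1h1d, Hist1h1e, Hist1h2bc, Hist1h2be, Hist2h2be and Hist3h2a, all with lower FPKM in the library labelled dKO. Hist1h2ac and Hist1h2bp, also left out, had higher FPKM there. The summed FPKM of all 66 members gave a smaller log2 of 0.19 (pseudocount 1 FPKM). H3 had 130 and 200 reads (log2 0.58, 0.25 to 0.91), and H4 179 and 242 (0.39, 0.10 to 0.68). H1 reads could be had for 3 of its genes. The intervals of H1, H2A and H2B included 0. Among the members with recovered reads, none had more than 125 in a library, so single genes are imprecise. Hist1h3a had 28 and 71 reads, Hist1h3c 18 and 50, Hist1h2bj 9 and 38, and Hist1h4i 79 and 125, all with more in the library labelled dKO. Hist1h2bh, with 10 and 1, and Hist1h2af, with 24 and 10, had fewer there. Hist3h2ba had 51 and 48. The library labelled dKO had less Id2 (18.6 and 9.69 FPKM) but more Id3 (159.8 and 221 FPKM), so Id3 goes against that label.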

How the data were processed

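Regulatory T cell messenger RNA was compared between 3 dKO and 2 control libraries, and separately in 1 unnumbered pair. In the replicated table, the signal columns as deposited hold a group mean for each gene, which the file headers call raw counts. The values are fractional, and their steps show reads divided by a size factor and averaged, hence the name scaled counts. The log2 values as deposited are the ratio of the group means, and the deposited p-values, raw and Benjamini-Hochberg adjusted, come from the authors' DESeq test on RSEM counts (versions not given; mm10, GRCm38), per the submitters' processing notes. Use of the strand in counting is not stated by the labels or headers. The pair's FPKM values, p-values and q-values as deposited come from Cuffdiff, per the file headers, with TopHat 1.4.0 and a Cuffdiff version of 0.0.6 on mm9, per the submitters' processing notes. The tables were never pooled.

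Since the table holds group means, the authors' test was used at an adjusted p under 0.05, and the planned tests on library counts were not run. A mean of 2 libraries fixes both whole read numbers in most cases. Size factors were 1.29 and 1.09 (control) and 0.929, 0.910 and 0.860 (dKO). With a tolerance of 6e-05 scaled counts plus 1e-07 of the value, 100.0% of 13430 control means under 10 were whole, and 96.2% of the 22135 under 1000 had a single solution. Tested on simulated data for the control libraries, all 67 simulated members and 199 of 199 resolved genes were recovered correctly. Which control library carries which replicate number is unknown, so they are called deeper and shallower. The dKO reads were resolved for low members. The scaled counts summed to 38950892 (control) and 39948550.0 (dKO).

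Transcripts were matched for 68 members, 61 by Ensembl identifier and 7 by symbol. Python 3.11.15, numpy 2.4.6, pandas 2.3.3, scipy 1.17.1 and matplotlib 3.10.9 were used. Genes named are the 4 members of each type with the most scaled counts, every member past the threshold, and up to 6 genes of each other list by adjusted p. Other members were named after their values were seen. 1 marker of the B cell list is not reported here. Members and lists were chosen with earlier results of these data known. Alternatives covered thresholds, level filters, pseudocounts, scaling, overlapping genes, members summed and each control library alone.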

Additional observations from a re-analysis of the deposited data

How the results depend on the processing

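No paired analysis was possible because the replicated table holds group means and its columns carry no replicate numbers, and for the same reason the planned edgeR, DESeq2 and replicate block fits and the calls without each replicate were not run. No value past the threshold changed direction under the alternatives tried. Signs turned for values with no call: Hist1h2bc went from 0.26 to -0.05 without the shallower control library, and, without the member of highest FPKM, the pair's H1 sum from -0.04 to 0.05 and its H2A sum from 0.04 to -0.15. The 29 members higher became 30 at an adjusted p under 0.1 and 20 under 0.01. They became 15 without the 32 of the 68 members that share 50% or more of the 50-base stretches of their GENCODE M21 transcripts. The adjusted p was kept there, so leaving members out can only lower the count. That alternative was chosen after seeing the data, and those transcripts can differ from the exons counted. The 1 member lower became 0 at 0.01. The median log2 of 0.76 ranged from 0.72 to 0.98 against either control library alone. The H2A sum went from 0.23 to 0.49 without Hist1h2ao. At an adjusted p under 0.1, 3 processing genes were higher. Without overlapping genes, which leaves fewer genes, 0 processing genes were lower, 3 chaperone genes higher and 6 S phase genes higher. Against the deeper or the shallower control library alone, the sums gave log2 values of 0.81 to 0.93 (H1), 0.54 to 0.79 (H2B), 0.85 to 1.20 (H3) and 0.37 to 0.74 (H4). Of the 30 members called, Hist2h3c2 alone moved by over 1.5 times. Scaling to the sum over all genes lowers every log2 by 0.04. Depth limits the pair, where members above 0 with recovered reads had a median of 32.0 reads over both libraries.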
